A study of Elaeis guineensis with 15 samples.

Results

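The comparison described here is the one made before any fruit was shed: abscission zone (AZ) tissue of field-grown oil palm (*Elaeis guineensis*) at 120 days after pollination (DAP) against the same tissue at 30 DAP. The members were chosen by age and origin, as the 2 field libraries of these ages among the 15 libraries of the series, joined on the transcript identifier, and each age was sequenced as 1 library. They hold values for 39449 genes, which are all described by counts, and 188 genes were selected by rule for their own values. The third field library, taken at 160 DAP from a bunch that was shedding, and the untreated AZ libraries of the ethylene experiment at 150 and 30 DAP were read only for values beside them.

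At 120 DAP and at 30 DAP the labels record that no fruit abscission was observed in the field, whereas abscission was observed at 160 DAP. All 3 field libraries are of *E. guineensis* fruit collected in Thailand and received no ethylene. The palm, clone or fruit type of the field bunches is not given in the sources used here, while the ethylene experiment used a *tenera* clone. Tissue was dissected from the fruit base with the AZ inside it and many pieces were pooled into one sample, so the RNA also came from the mesocarp and pedicel cells next to the AZ. With 1 library an age, no difference below has a replicate check, no test was made, and age cannot be told apart from any other difference between the bunches. Fewer cells of a type and less RNA per cell cannot be told apart either.

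Fruit of the oil palm are shed where cell layers between mesocarp and pedicel come apart. In shedding zones generally, cells first become competent to respond, and separation itself follows when pectin of the middle lamella between cells is demethylesterified and cut by polygalacturonases. Ethylene promotes shedding and auxin flowing through the zone restrains it. In *Arabidopsis* the peptide IDA and the receptor kinases HAESA and HAESA-LIKE2 carry the last signal for floral organ shedding, and a lignified cell layer limits where walls loosen. The mesocarp above the zone is the tissue that fills with oil and carotenoids during ripening.

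The deposited values are RPKM, reads scaled by transcript length and library size. The library totals recovered from them were 84184660 reads at 120 DAP and 73500310 reads at 30 DAP, and 44360 transcripts were listed. At 120 DAP 24013 genes reached 1 RPKM, against 26686 at 30 DAP. The 10 most abundant transcripts took 5.73% of all RPKM at 120 DAP and 4.13% at 30 DAP. The library at 160 DAP held 42896169 reads. A gene is called higher or lower at 120 DAP here where RPKM + 0.1 differed at least 2-fold between the ages and RPKM was at least 1 in either. Fold values are plain ratios of RPKM, log2 ratios are of RPKM + 0.1, and the intervals beside folds are 95% counting intervals, which hold no biological variation.

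More genes were lower than higher at 120 DAP. Of 28208 genes with at least 1 RPKM, 4331 (15.4%) were higher and 7651 (27.1%) were lower, and the median log2 ratio was -0.18. Among the 36186 genes present in both libraries the plain ratio had a median log2 of -0.20. Among the 22491 genes of at least 1 RPKM in both it was -0.06, so the median depended on which genes were counted. At least 10-fold differences were found in 714 genes (2.53%) that were higher and 2259 genes (8.01%) that were lower. Of genes with 1 RPKM or more, 12 were present at 120 DAP and listed at 0 at 30 DAP, and 165 were listed at 0 at 120 DAP and present at 30 DAP. Noncoding genes were split much like mRNA genes, with 360 of 2535 (14.2%) higher and 590 (23.3%) lower, against 3971 of 25673 mRNA genes (15.5%) higher and 7061 (27.5%) lower. No gene with 2 or more transcripts of at least 5 RPKM, of 1523 such genes, had transcripts called in both directions.

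**Figure D1:**
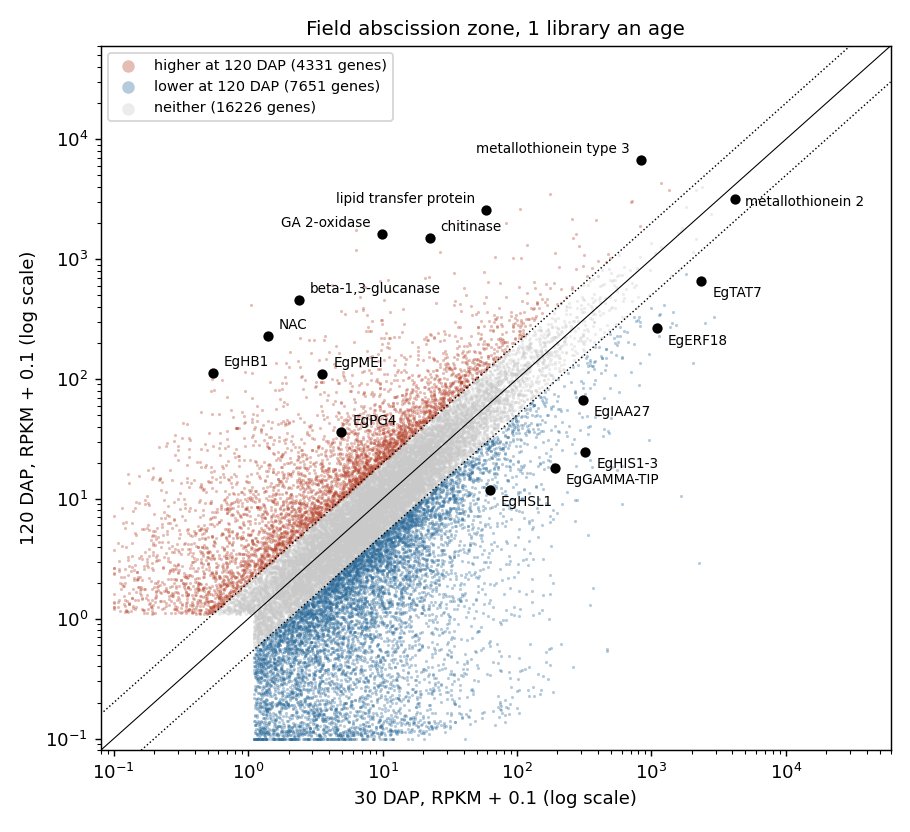
RPKM + 0.1 of each of 28208 genes at 120 DAP (vertical, log scale) and at 30 DAP (horizontal, log scale), 1 library an age. The solid line marks equal values and the dotted lines a 2-fold difference, with 4331 genes above the band, 7651 below it and 16226 within it. Black points are named genes, from the hemoglobin EgHB1 at 111 RPKM at 120 DAP and 0.447 RPKM at 30 DAP to the histone EgHIS1-3 at 24.7 RPKM at 120 DAP and 323 RPKM at 30 DAP.

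The balance of the calls turned with expression level. Of 11390 genes with a mean under 5 RPKM, 13.7% were higher and 36.7% lower at 120 DAP (median log2 ratio -0.48). Between 5 and 50 RPKM 14.9% of 14367 genes were higher and 21.3% lower. Among the abundant genes higher calls outnumbered lower ones, by a margin that was small without the annotated genes. Between 50 and 500 RPKM 25.7% of 2338 genes were higher and 17.0% lower, with a median of 0.23, and of the 113 genes at 500 RPKM and over 31.9% were higher and 22.1% lower, with a median of 0.35. Without the annotated genes, which were selected for ethylene response, 21.3% of 1972 genes at 50 to 500 RPKM were higher and 18.6% lower, and 18 of 67 genes at 500 RPKM and over were higher and 17 lower. Weakly expressed genes were thus more often lower than higher at 120 DAP, while abundant genes without annotation were split nearly evenly.

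**Figure D2:**
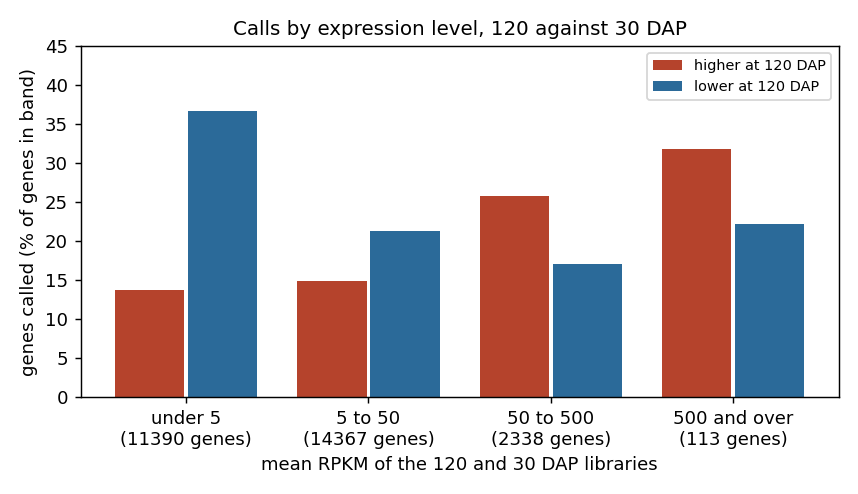
Share of genes called higher (red) and lower (blue) at 120 DAP in 4 bands of mean RPKM over both ages. Lower calls fall to 17.0% of genes at 50 to 500 RPKM against 36.7% under 5 RPKM, and higher calls reach 31.9% at 500 RPKM and over against 13.7% under 5 RPKM. Annotated genes are included, and without them the top band has 18 genes higher and 17 lower.

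Only 888 of the 39449 genes could be annotated, 850 of them with a product name. The annotation came through contigs of the ethylene experiment that the study had selected for their response in the ripe AZ. These genes were thus picked by that response. They are no sample of the transcriptome. Of the 877 annotated genes tested, 440 (50.2%) were higher and 54 (6.16%) lower at 120 DAP (median log2 ratio 1.01). A core list of 159 of them was chosen by the study on these field libraries as well, and 102 of its 157 tested genes (65.0%) were higher and 15 (9.55%) lower. Of the 720 tested annotated genes outside the core list, 338 (46.9%) were higher and 39 (5.42%) lower, with a median of 0.84. Every count of a gene list below stands against these shares and is not independent evidence of its direction.

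The study measured several of the genes below with primers of its own, and the pairs of the pectin genes and of the auxin gene EgIAA27 are printed to identify the transcripts that the wall and auxin results turn on. All are written 5′ to 3′, with no part capitalised.
EgPG4 forward: acctacggaaacaagcc
EgPG4 reverse: aatcctacatcacccatttca
EgPGAZ1 forward: gtgatcccgttgccttgc
EgPGAZ1 reverse: gatgagaagagggcccaaa
EgPGAZ2 forward: cccacaaaaattgcttctgc
EgPGAZ2 reverse: gatggatatgcagccatgc
EgPMEI forward: tcatgcagttcaccagcaac
EgPMEI reverse: caaacctttgctctttaaccaa
EgIAA27 forward: aggaggctaaggatcatgaagg
EgIAA27 reverse: gcttttggttttgagatggtc

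Polygalacturonases, which hydrolyse homogalacturonan, were already higher at 120 DAP, but at low levels. All 5 annotated members were called higher (median log2 ratio 3.5, summed 88.4 RPKM at 120 DAP and 7.94 RPKM at 30 DAP), of which 3 belong to the core list. EgPG4 (LOC105034919), the polygalacturonase first described from this zone, had 35.9 RPKM at 120 DAP and 4.83 RPKM at 30 DAP, a 7.42-fold difference (6.78 to 8.15). EgPGAZ1 (XM_010939219) and EgPGAZ2 (XM_010939232), both similar to the *Arabidopsis* dehiscence polygalacturonase ADPG1, had 4.85 and 11.8 RPKM at 120 DAP, against 0.616 and 0.954 RPKM at 30 DAP. The locus numbers of these 2 genes are exchanged between supplementary tables, so they are named by transcript. In the shedding bunch at 160 DAP the same 3 genes stood at 1938, 201 and 697 RPKM, so the values at 120 DAP were far closer to those at 30 DAP than to those at 160 DAP. The other members, LOC105050235 and LOC105037614, had 26.9 and 8.94 RPKM at 120 DAP, against 1.30 and 0.238 RPKM at 30 DAP.

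EgPMEI (LOC105041092), a member of the invertase and pectin methylesterase inhibitor family, was more abundant at 120 DAP than any of the polygalacturonases. It had 110 RPKM at 120 DAP and 3.47 RPKM at 30 DAP (31.7-fold, 27.6 to 36.7), and 1259 RPKM at 160 DAP. The list of expansins, which loosen walls without cutting them, had 3 of 5 members higher and none in the core list. Of those higher, only LOC105053923 has expansin in its product name. Expansin-like LOC105053923 had 125 RPKM at 120 DAP and 1.91 RPKM at 30 DAP (65.3-fold), with 56.4 RPKM at 160 DAP. Another member, LOC105048815, named blight-associated protein P12, had 221 RPKM at 120 DAP and 9.65 RPKM at 30 DAP, and 9204 RPKM at 160 DAP. These 2 genes were of like size at 120 DAP and far apart at 160 DAP. Expansin-like LOC105061551 had 156 RPKM at 120 DAP and 132 RPKM at 30 DAP and was not called. LOC105043690, named expansin, was not called either, with 3.51 RPKM at 120 DAP and 5.61 RPKM at 30 DAP. LOC105040169, also named blight-associated protein P12, was higher, with 3.99 RPKM at 120 DAP and 1.04 RPKM at 30 DAP.

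Other wall hydrolases were split. EgBXL2 (LOC105039922), a beta-xylosidase, had 50.3 RPKM at 120 DAP and 7.76 RPKM at 30 DAP, and EgMAN7 (LOC105040138), similar to an endo-beta-mannanase of *Arabidopsis* pod opening, had 16.8 RPKM at 120 DAP and 0.429 RPKM at 30 DAP (39.2-fold, 29.1 to 54.1). One beta-galactosidase, LOC105058345, was higher at 58.5 RPKM at 120 DAP and 17.5 RPKM at 30 DAP, whereas another, LOC105040419, was lower at 7.09 RPKM at 120 DAP and 19.9 RPKM at 30 DAP. The lower call of LOC105040419 was lost on its most abundant transcript alone (log2 ratio -0.55). Of the cellulose synthase list, cellulose synthase-like LOC105061164 was lower, with 32.4 RPKM at 120 DAP and 85.4 RPKM at 30 DAP, and a cellulose synthase, LOC105051955, with 3.02 RPKM at 120 DAP and 4.81 RPKM at 30 DAP, was not called.

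The lignin list had 5 of 6 members higher at 120 DAP, and 3 of 4 outside the core list. Its median log2 ratio was 2.4, and it summed to 432 RPKM at 120 DAP and 68.3 RPKM at 30 DAP. The higher member XM_010913334 is named only alcohol dehydrogenase, with 111 RPKM at 120 DAP and 22.3 RPKM at 30 DAP. Its part in lignin synthesis was not tested. EgC4H (LOC105050451), cinnamate 4-hydroxylase of the phenylpropanoid pathway, had 180 RPKM at 120 DAP and 11.1 RPKM at 30 DAP (16.1-fold, 15.4 to 16.9). EgLAC7 (LOC105052147), a laccase of the kind that couples monolignols, had 30.8 RPKM at 120 DAP and 1.22 RPKM at 30 DAP, and 1267 RPKM at 160 DAP. EgC4H had 480 RPKM at 160 DAP. Both genes were thus higher in the shedding bunch than at 120 DAP, and EgLAC7 by far the more. Cinnamoyl-CoA reductase-like LOC105032898 and LOC105032901 had 61.2 and 30.7 RPKM at 120 DAP, against 13.8 and 5.35 RPKM at 30 DAP. Cinnamyl alcohol dehydrogenase LOC105043276 was not called, with 19.0 RPKM at 120 DAP and 14.5 RPKM at 30 DAP.

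Ethylene synthesis genes were abundant before shedding. ACC oxidase makes ethylene from its precursor ACC, and 3 of the 4 listed members were higher (summed 3318 RPKM at 120 DAP and 435 RPKM at 30 DAP). ACC oxidase LOC105039092 had 2110 RPKM at 120 DAP, rank 15 of all genes, and 389 RPKM at 30 DAP, a 5.42-fold difference. At 160 DAP it had 1718 RPKM. ACC oxidase LOC105035107 had 1154 RPKM at 120 DAP and 26.8 RPKM at 30 DAP (43.1-fold, 41.5 to 44.8), and 536 RPKM at 160 DAP. EgACO5 (LOC105032553) was much weaker, with 39.5 RPKM at 120 DAP and 1.03 RPKM at 30 DAP, and 671 RPKM at 160 DAP. Of the 2 abundant oxidases, LOC105035107 was thus higher at 120 DAP than in the shedding bunch and LOC105039092 was within 2-fold of it. EgACO5 was lower at 120 DAP than in the shedding bunch. The fourth member, LOC105060011, is annotated only as a 2-oxoglutarate-dependent oxygenase and had 14.6 RPKM at 120 DAP and 17.5 RPKM at 30 DAP.

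Ethylene perception genes went both ways. Of 5 members 2 were higher and 1 lower, with a median log2 ratio of 0.25. EgEIN4 (LOC105043053), a receptor of the EIN4 type that represses the response in the absence of ethylene, had 43.6 RPKM at 120 DAP and 6.36 RPKM at 30 DAP (6.85-fold, 6.48 to 7.25). Receptor LOC105039888 had 36.8 RPKM at 120 DAP and 16.1 RPKM at 30 DAP, and receptor LOC105053582 had 21.6 RPKM at 120 DAP and 18.6 RPKM at 30 DAP. Kinase LOC105052602 was lower, with 17.2 RPKM at 120 DAP and 40.4 RPKM at 30 DAP. The F-box gene LOC105033977 had 165 RPKM at 120 DAP and 139 RPKM at 30 DAP.

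Ethylene response factors, transcription factors of the AP2/ERF family, went both ways, with 5 of 13 tested members higher and 2 lower (4 and 1 of 10 outside the core list). Their summed level was lower, at 2430 RPKM at 120 DAP and 3356 RPKM at 30 DAP, and the 2 lower members are among the most abundant of them. EgERF18 (LOC105043733) had 264 RPKM at 120 DAP and 1091 RPKM at 30 DAP, 4.13-fold lower (4.08 to 4.19), and LOC105035740, named ethylene-responsive factor 4, had 153 RPKM at 120 DAP and 601 RPKM at 30 DAP. LOC105050553, also named factor 4, had 505 RPKM at 120 DAP and 961 RPKM at 30 DAP and passed the 2-fold limit only after scaling to TPM (log2 ratio -1.02). Against these, the factor named 2a at LOC105038034 had 391 RPKM at 120 DAP and 7.01 RPKM at 30 DAP, and EgRAP2.4 (LOC105048614) had 135 RPKM at 120 DAP and 57.5 RPKM at 30 DAP.

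Of the other hormones, gibberellin stood out by 1 gene. Gibberellin 2-oxidase (LOC105040629), which inactivates gibberellins, had 1620 RPKM at 120 DAP and 9.74 RPKM at 30 DAP (166-fold, 149 to 187), and 562 RPKM at 160 DAP. EgGA1 (LOC105042778), a terpenoid cyclase at the start of gibberellin synthesis in *Arabidopsis*, had 14.9 RPKM at 120 DAP and 1.72 RPKM at 30 DAP. The third listed gene, LOC105040426, had 23 RPKM at 120 DAP and 4.13 RPKM at 30 DAP. It is on the list by a description only. Its product name, cytochrome P450 CYP98A29, does not name gibberellin, and a part in gibberellin metabolism was not tested. All 3 were called higher, at very different levels.

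Auxin genes were few. EgIAA27 (LOC105040857), a repressor of auxin response, was lower, with 66.9 RPKM at 120 DAP and 309 RPKM at 30 DAP (4.62-fold lower, 4.51 to 4.73), and 14.3 RPKM at 160 DAP. EgPILS6 (LOC105046029), a PIN-LIKES carrier, was higher, with 21.5 RPKM at 120 DAP and 2.24 RPKM at 30 DAP. EgGH3.5 (LOC105056155), which conjugates auxin to amino acids, had 3.60 RPKM at 120 DAP and 2.21 RPKM at 30 DAP, against 69.5 RPKM at 160 DAP, so its high level was found in the shedding bunch and in neither of the earlier libraries. Auxin response factor LOC105059786 was not called, with 28.7 RPKM at 120 DAP and 22.3 RPKM at 30 DAP. Outside the auxin lists, the auxin-repressed proteins XM_010923356 and XM_010945645 were named for their ratio or abundance, and both were lower. XM_010923356 had 36.5 RPKM at 120 DAP and 475 RPKM at 30 DAP (13-fold lower), and XM_010945645 had 341 RPKM at 120 DAP and 1134 RPKM at 30 DAP.

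Jasmonate genes were higher in 6 of 8 members (median log2 ratio 1.71, 5 of 6 outside the core list). EgAOC3 (LOC105041662), allene oxide cyclase of jasmonate synthesis, had 208 RPKM at 120 DAP and 26.6 RPKM at 30 DAP. The JAZ repressors LOC105058608 and LOC105056702 had 1098 and 319 RPKM at 120 DAP, against 474 and 68.7 RPKM at 30 DAP. Another JAZ gene, LOC105042036, was not called at 130 RPKM at 120 DAP and 94.8 RPKM at 30 DAP. The lipoxygenases differed. EgLOX5 (LOC105041807) was not called at 122 RPKM at 120 DAP and 172 RPKM at 30 DAP. Lipoxygenase LOC105032459 was higher, with 40.9 RPKM at 120 DAP and 1.20 RPKM at 30 DAP, and 1495 RPKM at 160 DAP. EgLOG8 (LOC105035179), similar to enzymes that activate cytokinins, had 74.3 RPKM at 120 DAP and 3.34 RPKM at 30 DAP.

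In the abscission signalling list 1 of 6 members was higher, 1 was lower and 4 were not called (median log2 ratio 0.41), and both called genes belong to the core list. The list was filled by product name. Its uncalled members are receptor-like kinases and a BEL1-like factor, whose part in shedding was not tested. EgHSL1 (LOC105051708), a receptor kinase related to HAESA that the study also names CEPR2, was lower. It had 11.8 RPKM at 120 DAP and 62.9 RPKM at 30 DAP (5.34-fold lower, 5.15 to 5.53), and 9.34 RPKM at 160 DAP. EgBEL1 (LOC105059537), a homeodomain factor, was higher, with 29.8 RPKM at 120 DAP and 4.74 RPKM at 30 DAP, and 106 RPKM at 160 DAP. The level of the receptor kinase at 120 DAP was thus close to that of the shedding bunch, which was not so for EgBEL1. BEL1-like LOC105053454 had 28.3 RPKM at 120 DAP and 17.7 RPKM at 30 DAP, and the leucine-rich repeat kinase LOC105032053 had 114 RPKM at 120 DAP and 89.6 RPKM at 30 DAP, neither of them called.

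**Figure D3:**
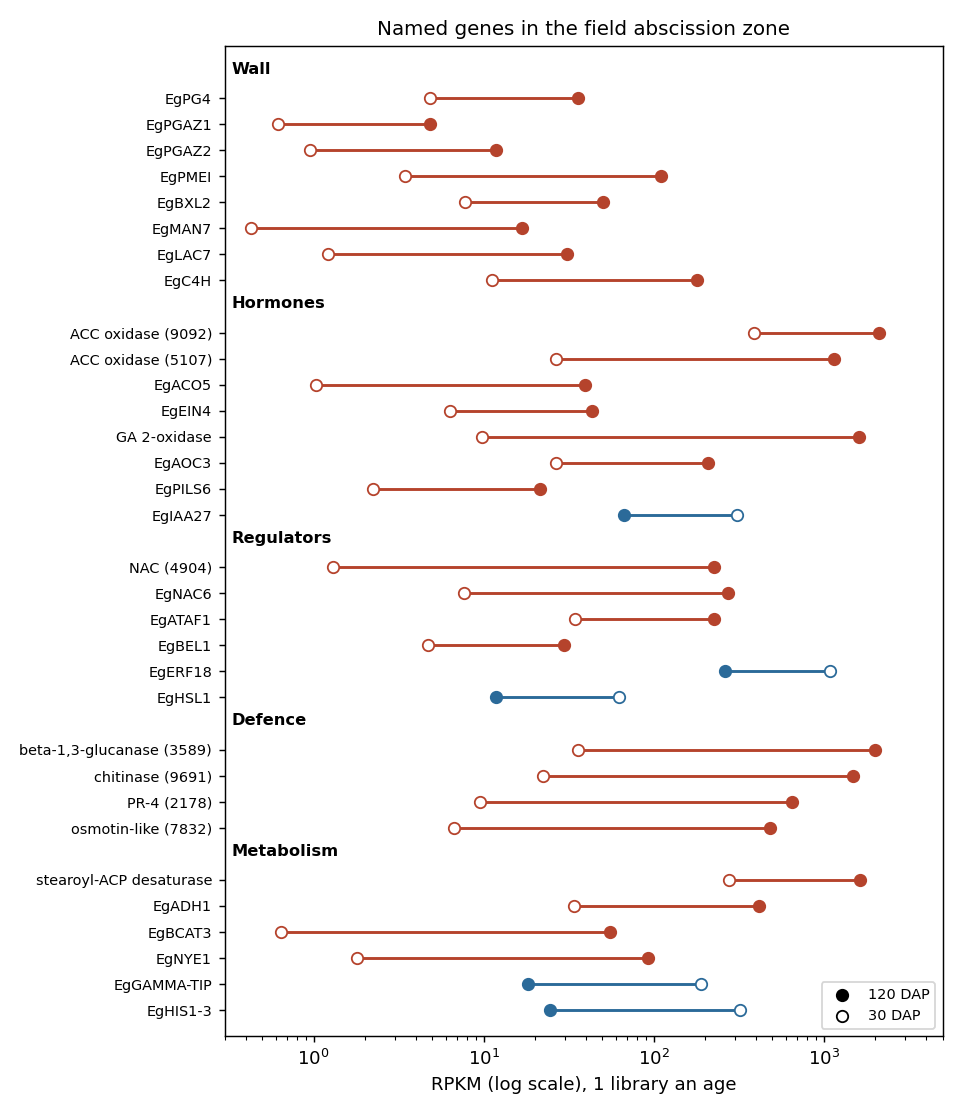
RPKM (horizontal, log scale) of 32 named genes at 120 DAP (filled points) and 30 DAP (open points), 1 library an age, joined by a red line where the value at 120 DAP is at least 2-fold higher and a blue line where it is at least 2-fold lower. Digits in brackets are the last of the locus or transcript number. The red lines of the gibberellin 2-oxidase (1620 and 9.74 RPKM) and of a NAC factor (227 and 1.31 RPKM) are among the longest, and EgIAA27, EgERF18, EgHSL1, EgGAMMA-TIP and EgHIS1-3 are blue.

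NAC factors, plant transcription factors that include regulators of senescence and ripening, were higher in 10 of 12 members and lower in none (median log2 ratio 3.19, 8 of 10 outside the core list with a median of 2.54). LOC105044904 had 227 RPKM at 120 DAP and 1.31 RPKM at 30 DAP (174-fold, 148 to 206), and 918 RPKM at 160 DAP. EgNAC6 (LOC105046073) had 273 RPKM at 120 DAP and 7.66 RPKM at 30 DAP (35.6-fold, 33.2 to 38.2). EgATAF1 (LOC105038428) had 227 RPKM at 120 DAP and 34.7 RPKM at 30 DAP. These 3 factors were alike in level at 120 DAP and differed at 30 DAP. LOC105051813 and LOC105049524 were not called, with 129 and 31.0 RPKM at 120 DAP and 169 and 39.9 RPKM at 30 DAP. Among other regulators, MADS-box gene LOC105038810 had 141 RPKM at 120 DAP and 53.0 RPKM at 30 DAP. MADS-box gene LOC105042146 was not called, with 109 RPKM at 120 DAP and 95.1 RPKM at 30 DAP. A WRKY factor (LOC105041017) had 330 RPKM at 120 DAP and 75.3 RPKM at 30 DAP, and EgCIB1 (LOC105058752), a bHLH factor, had 105 RPKM at 120 DAP and 3.53 RPKM at 30 DAP.

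Pathogenesis-related proteins, secreted enzymes and small proteins of defence that many fruits make while ripening, had the highest median of all lists with 4 or more tested members. Of 21 members 18 were higher and none lower (median log2 ratio 5.39), and outside the core list 13 of 15 were higher (median 5.60). Their summed level was 6703 RPKM at 120 DAP and 633 RPKM at 30 DAP, and 82446 RPKM at 160 DAP. Beta-1,3-glucanases, which cut callose and fungal glucan, were led by XM_010923589 with 2002 RPKM at 120 DAP and 36.0 RPKM at 30 DAP (55.6-fold, 53.7 to 57.6). Chitinase LOC105059691 had 1495 RPKM at 120 DAP and 22.4 RPKM at 30 DAP, and LOC105042178, also named a chitinase, had 655 RPKM at 120 DAP and 9.50 RPKM at 30 DAP. Thaumatin-like XM_010907832 had 485 RPKM at 120 DAP and 6.71 RPKM at 30 DAP (72.4-fold, 66.0 to 79.5). Members of the family that were low at 120 DAP could still be very high later: thaumatin LOC105053636 had 49.8 RPKM at 120 DAP and 3.51 RPKM at 30 DAP, and 17186 RPKM at 160 DAP. The glucan endo-1,3-beta-glucosidase LOC105045664 went the other way without reaching 2-fold, with 256 RPKM at 120 DAP and 486 RPKM at 30 DAP. Scaled to TPM its log2 ratio was -1.02.

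Several of these genes are neighbours in the order of the RefSeq annotation of EG11, an assembly of another build than the one mapped. Beta-1,3-glucanase LOC105045348 had 453 RPKM at 120 DAP and 2.27 RPKM at 30 DAP (200-fold, 174 to 230), and the locus next to it, LOC105045349, had 79.3 RPKM at 120 DAP and 0.431 RPKM at 30 DAP (184-fold, 136 to 256). LOC105045343, 9 loci away, had 145 RPKM at 120 DAP and 3.29 RPKM at 30 DAP, and LOC105033962, 2 loci from that, had 167 RPKM at 120 DAP and 3.90 RPKM at 30 DAP. The fifth gene of the row, LOC105033964, had only 17.5 RPKM at 120 DAP and 3.8 RPKM at 30 DAP, and 5027 RPKM at 160 DAP. All of the row were called higher, by ratios that differed widely. Similar genes in such a row could share reads, which was not tested, so their single values are less certain than their sum. Thaumatin-like genes lie in like manner. LOC105053636, LOC105053635 and LOC105053634 follow one another within 2 loci and had 49.8, 20.1 and 38.4 RPKM at 120 DAP, against 3.51, 0.317 and 1.15 RPKM at 30 DAP.

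Glycolysis and fermentation had 10 of 13 members higher and none lower (median log2 ratio 1.91), but only 3 of the 6 members outside the core list were higher. EgADH1 (LOC105036492), alcohol dehydrogenase, had 416 RPKM at 120 DAP and 34.1 RPKM at 30 DAP (12.2-fold, 11.8 to 12.6). Pyruvate decarboxylases EgPDC4 (LOC105038446) and EgPDC2 (LOC105045855), the step before it in fermentation, had 36.4 and 35.5 RPKM at 120 DAP, against 2.66 and 5.25 RPKM at 30 DAP. The nonsymbiotic hemoglobin EgHB1 (LOC105033708), of a family that scavenges nitric oxide when oxygen is low, had the highest ratio of all named genes of at least 50 RPKM, with 111 RPKM at 120 DAP and 0.447 RPKM at 30 DAP (248-fold, 169 to 381). EgPFK3 (LOC105040103), a phosphofructokinase, lay at the limit, with 77.3 RPKM at 120 DAP and 38.6 RPKM at 30 DAP, and fell under 2-fold in TPM or with a pseudocount of 1.

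Starch breakdown was higher in 4 of 5 members. A beta-amylase, LOC105043800, had 219 RPKM at 120 DAP and 10.1 RPKM at 30 DAP (21.7-fold), and EgAMY1 (LOC105060891), an alpha-amylase, had 45.9 RPKM at 120 DAP and 0.961 RPKM at 30 DAP (47.7-fold). A debranching enzyme, LOC105057759, was lower at 3.62 RPKM at 120 DAP and 8.98 RPKM at 30 DAP. For sucrose, a transporter (LOC105041710) had 648 RPKM at 120 DAP and 134 RPKM at 30 DAP and neutral invertase LOC105039986 had 116 RPKM at 120 DAP and 23.6 RPKM at 30 DAP. The most abundant sucrose synthase, LOC105056682, was not called at 828 RPKM at 120 DAP and 481 RPKM at 30 DAP.

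The list of nitrogen recycling and amino acid breakdown had 9 of 10 members higher and none lower (median log2 ratio 2.50, 3 of 4 outside the core list). Of these, 3 are asparagine synthases, which make an amino acid that carries nitrogen: EgASN1 (LOC105044583), LOC105042098 and LOC105045849, at 73.4, 92.0 and 36.9 RPKM at 120 DAP, against 3.86, 28.8 and 10.9 RPKM at 30 DAP. Outside the core list the list thus held 2 asparagine synthases, both higher, and 2 other genes. Of these LOC105040943 was higher. Glutamate dehydrogenase LOC105034975 was not called, with 12.6 RPKM at 120 DAP and 19.2 RPKM at 30 DAP. Branched-chain aminotransferases, which transfer the amino group of leucine, isoleucine and valine, gave the largest ratios. LOC105040943 had 228 RPKM at 120 DAP and 3.64 RPKM at 30 DAP (62.5-fold). EgBCAT3 (LOC105058186) had 55.3 RPKM at 120 DAP and 0.647 RPKM at 30 DAP (85.4-fold). Whether they act in breakdown or in synthesis here was not tested. EgMCCB (LOC105048694), a subunit of a carboxylase of leucine breakdown, had 91.5 RPKM at 120 DAP and 21.5 RPKM at 30 DAP. EgTAT7 (LOC105051990), a tyrosine aminotransferase outside this list, was lower, with 660 RPKM at 120 DAP and 2352 RPKM at 30 DAP, and 36.0 RPKM at 160 DAP. Chlorophyll breakdown was represented by EgNYE1 (LOC105034133), a stay-green magnesium dechelatase, at 93.2 RPKM at 120 DAP and 1.81 RPKM at 30 DAP (51.6-fold, 44.9 to 59.5).

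Some markers of tissues next to the zone were also higher at 120 DAP, and their part in the differences above was not tested. Of the 7 mesocarp oil genes 3 were higher and none lower (median log2 ratio 0.73), a smaller share than among all annotated genes, and they summed to 2281 RPKM at 120 DAP and 577 RPKM at 30 DAP, at 120 DAP mostly from 1 gene. That gene, stearoyl-ACP desaturase LOC105049670, which makes oleate in plastids, had 1629 RPKM at 120 DAP and 277 RPKM at 30 DAP (5.89-fold), and 105 RPKM at 160 DAP. The 3 carotenoid genes, all higher, summed to 171 RPKM at 120 DAP and 48.8 RPKM at 30 DAP, among them EgPDS3 (LOC105056650), phytoene desaturase, at 82.6 RPKM at 120 DAP and 11.2 RPKM at 30 DAP. Of kernel markers the 1 annotated, a caleosin (LOC105044187), had 27.7 RPKM at 120 DAP and 0.446 RPKM at 30 DAP. Of green tissue markers the 1 annotated, the Rubisco small subunit (LOC105039639), had 213 RPKM at 120 DAP and 28.4 RPKM at 30 DAP. The lignin list, used as the marker of vascular tissue, was given above.

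Genes taken as markers of the zone itself were above 0 at both ages, but this does not show how much of the tissue was zone. At 30 DAP EgPGAZ1 and EgPGAZ2 were under 1 RPKM, at 0.616 and 0.954 RPKM. EgPG4 is not particular to the zone, since the study also reports it in ripening mesocarp. Besides the 3 core polygalacturonases and EgBEL1, AGL2-3, a MADS-box gene of the SEPALLATA group, had 108 RPKM at 120 DAP and 41.0 RPKM at 30 DAP, and 55.4 RPKM at 160 DAP. Another gene with an AGL2 symbol, AGL2-5 (LOC105057174), had 12.5 RPKM at 120 DAP and 9.35 RPKM at 30 DAP, under the 2-fold limit. No KNOX gene was among the annotated genes. None of these markers was at 0 at either age, and EgPGAZ1 was the lowest at both.

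**Figure D4:**
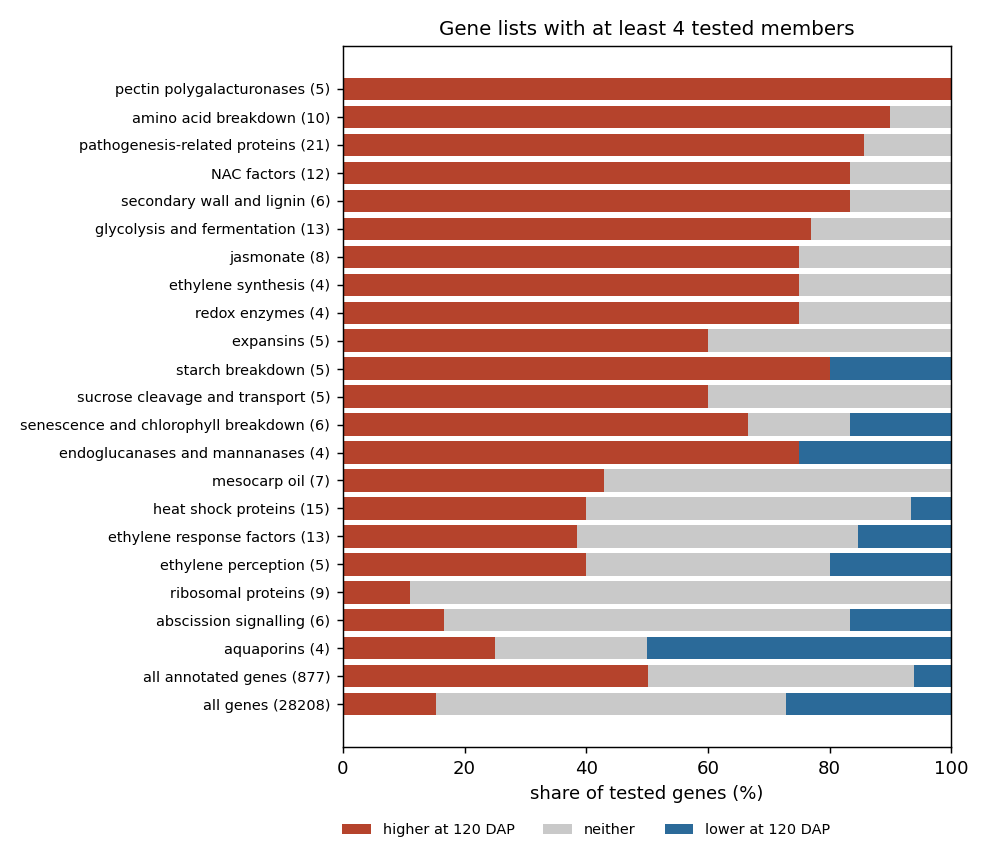
Share of tested members (horizontal, percent) called higher at 120 DAP (red), in neither direction (grey) and lower at 120 DAP (blue) in each gene list with 4 or more tested members, with the number tested in brackets. Polygalacturonases (5 of 5), amino acid breakdown (9 of 10, of which 3 are asparagine synthases) and pathogenesis-related proteins (18 of 21) stand at the top, beside 50.2% of all annotated genes and 15.4% of all genes, and aquaporins (2 of 4) have the most blue.

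Ribosomal proteins and actins were mostly not called. The ribosomal proteins had 1 of 9 members higher, none lower and a median log2 ratio of -0.06, and the 2 actins, at 345 and 225 RPKM at 120 DAP against 230 and 189 RPKM at 30 DAP, were not called. Heat shock proteins had 6 of 15 higher and 1 lower. The cell division list held only the replication clamp PCNA (LOC105056549), at 188 RPKM at 120 DAP and 4.43 RPKM at 30 DAP. Over all lists, 42 of 46 had an annotated member, 31 of these had no lower member and 4 had more lower than higher members.

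Genes that were lower at 120 DAP were rarer among the annotated. EgHIS1-3 (LOC105059363), a linker histone, had 24.7 RPKM at 120 DAP and 323 RPKM at 30 DAP (13.1-fold lower, 11.9 to 14.4), and a histone H3, XM_010941393, had 288 RPKM at 120 DAP and 1118 RPKM at 30 DAP. Another histone H3, LOC105059364, was not called, with 731 RPKM at 120 DAP and 605 RPKM at 30 DAP. EgGAMMA-TIP (LOC105037218), an aquaporin of the vacuolar membrane, had 18.1 RPKM at 120 DAP and 190 RPKM at 30 DAP (10.5-fold lower, 9.98 to 11), whereas aquaporin 1 (LOC105044283) had 1033 RPKM at 120 DAP and 68.2 RPKM at 30 DAP. The aquaporins thus held a gene 15.1-fold higher beside one 10.5-fold lower. Also lower were cathepsin F-like protease LOC105061301, with 17.4 RPKM at 120 DAP and 88.0 RPKM at 30 DAP, glutamyl-tRNA reductase LOC105054529 of tetrapyrrole synthesis, with 38.2 RPKM at 120 DAP and 142 RPKM at 30 DAP, and RING finger gene LOC105044000, with 84.0 RPKM at 120 DAP and 352 RPKM at 30 DAP.

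The most abundant named transcripts changed places between the ages. At 120 DAP metallothionein-like type 3 (LOC105040880), a small metal-binding protein common in ripening fruit, ranked first of all genes with 6713 RPKM, against 836 RPKM at 30 DAP, and 538 RPKM at 160 DAP. Late embryogenesis abundant protein 5 (LOC105045181) ranked next with 4326 RPKM at 120 DAP, against 1171 RPKM at 30 DAP. A type 2 metallothionein (LOC105044409) ranked first at 30 DAP, with 3202 RPKM at 120 DAP and 4151 RPKM at 30 DAP, and was not called. A lipid transfer protein (LOC105048762) had 2572 RPKM at 120 DAP and 59.1 RPKM at 30 DAP (43.5-fold, 41.9 to 45.3). A ubiquitin gene (LOC105052028) had 3023 RPKM at 120 DAP and 713 RPKM at 30 DAP, but ubiquitin genes form a family whose members can share reads, so this value is uncertain. Type 3 metallothionein, the late embryogenesis protein, stearoyl-ACP desaturase and the gibberellin 2-oxidase were all lower at 160 DAP than at 120 DAP.

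The extremes of the comparison lay partly outside the annotated genes. Of the 100 genes of at least 50 RPKM with the highest ratios 43 had a product name, and of the 100 with the lowest ratios none had, where 482 of all 3278 genes of that level were named. The lowest ratios were those of LOC105038640, with 0.437 RPKM at 120 DAP and 463 RPKM at 30 DAP (1061-fold lower, 776 to 1493), and LOC105035266, with 0.459 RPKM at 120 DAP and 466 RPKM at 30 DAP. The highest ratios were those of XM_010919036, with 414 RPKM at 120 DAP and 0.955 RPKM at 30 DAP (434-fold, 363 to 524), and XM_010943988, with 1734 RPKM at 120 DAP and 6.28 RPKM at 30 DAP. XM_010943988 stood at 49.5 RPKM at 160 DAP, so it was high in the 120 DAP library alone of the 3.

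The untreated libraries of the ethylene experiment give another reading of the zone at a late and an early age, by pyrosequencing of a *tenera* clone at 150 and 30 DAP, 1 library each. They are shallow, with 102611 reads in contigs at 150 DAP and 26560 at 30 DAP, so that a gene without a read may still have had up to 2.92 reads per 100000 at 150 DAP and 11.3 at 30 DAP. The annotated genes were selected in part on these libraries, and the values are given side by side only. Of 118 named genes higher in the field at 120 DAP with a contig of their own, the exact 95% binomial intervals, for counting error only, lay apart in 22, of which 21 were higher at 150 DAP, and overlapped in 96. Of 19 named genes lower in the field, the intervals lay apart in 9, of which 7 were lower at 150 DAP and 2 higher. Of 50 named genes called in neither direction in the field, they lay apart in 8, of which 3 were higher at 150 DAP and 5 lower. Most of the named genes therefore could not be placed at this depth.

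Beta-1,3-glucanase XM_010923589 had 119 reads per 100000 at 150 DAP (98.7 to 142) and no read at 30 DAP. EgADH1 had 210 reads per 100000 at 150 DAP (182 to 239) and no read at 30 DAP, the gibberellin 2-oxidase LOC105040629 had 60.4 at 150 DAP (46.3 to 77.5) and no read at 30 DAP, and EgNAC6 had 47.8 at 150 DAP (35.3 to 63.1) and no read at 30 DAP. Stearoyl-ACP desaturase LOC105049670 had 134 at 150 DAP (112 to 158) and 37.7 at 30 DAP (18.1 to 69.2). Among the genes lower in the field, EgTAT7 had 177 at 150 DAP (153 to 205.1) and 339 at 30 DAP (273 to 416). Other genes differed between the experiments. EgERF18, lower in the field at 120 DAP, had 41.9 at 150 DAP (30.3 to 56.4) and no read at 30 DAP. ACC oxidase LOC105035107, 43.1-fold higher in the field at 120 DAP, had no read at 150 DAP and 18.8 at 30 DAP (6.11 to 43.9). EgPMEI had no read in either library. Platform, plant material and age differ together between the experiments and cannot be told apart.

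**Figure D5:**
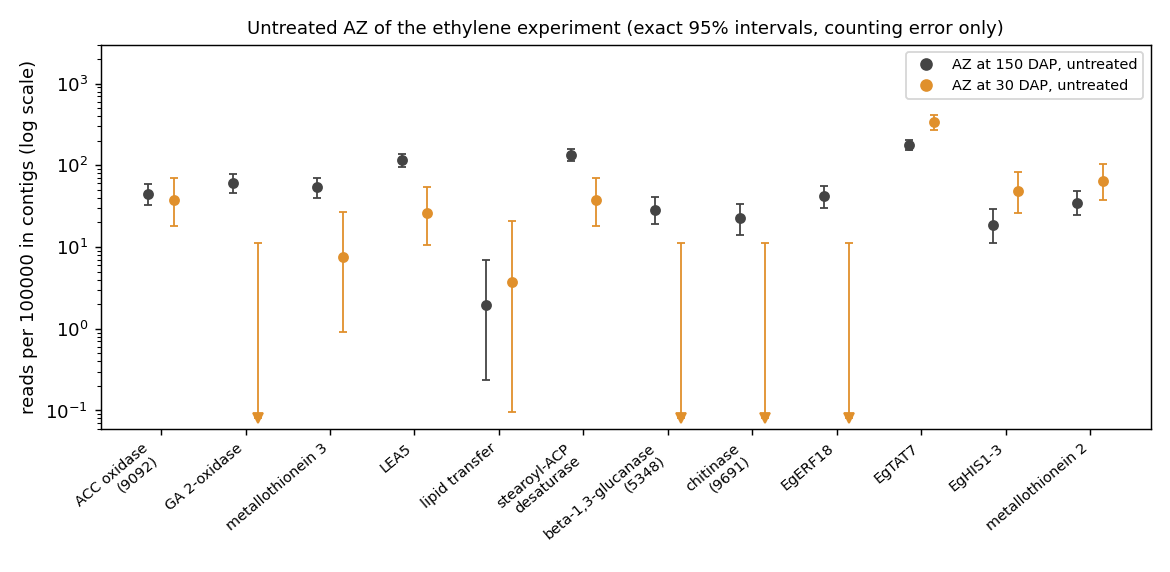
Reads per 100000 in contigs (vertical, log scale) of 12 named genes in the untreated AZ at 150 DAP (dark) and 30 DAP (orange), 1 library each, with exact 95% binomial intervals that cover counting error only. Arrows mark genes without a read, with the upper limit at 11.3. The gibberellin 2-oxidase and EgERF18 have reads at 150 DAP only, and EgTAT7 is lower at 150 DAP (177 at 150 DAP, 339 at 30 DAP).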

How the data were processed

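Illumina reads of the field libraries were trimmed by the authors (Cutadapt) and aligned with BWA-MEM, at default settings, to the predicted transcripts of the EG5 assembly. From SAMtools counts the authors computed RPKM and deposited it for 44360 transcripts, 39453 of mRNA and 4907 noncoding. For these tools no version was found in the labels or methods. For the ethylene experiment the authors deposited raw counts of Roche pyrosequencing reads in 51804 contigs assembled over 12 libraries, of which 2 were used. The other libraries of that experiment were left out.

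Values were analysed in Python (3.11.15) with pandas 2.3.3, numpy 2.4.6, scipy 1.17.1 and, for figures, matplotlib 3.10.9. Library totals were recovered as the number that turns every RPKM value into whole reads over a whole length (largest relative error 4.27e-16). The multiple of that number was chosen by how many lengths equalled the span of a single-transcript gene, 25 against 12 for the next best at 120 DAP, 22 against 19 at 30 DAP and 26 against 22 at 160 DAP, so the total at 30 DAP is less certain. Transcripts of a locus were summed for 23598 transcripts that RefSeq (EG11) maps to a locus and the others kept single, which gave 39449 genes. No coordinates are given since the builds differ. Fold intervals are exact conditional intervals, given for genes with 1 transcript. Reads of a transcript were recovered without any factor they shared with its length, so they can be too low and the interval too wide. The calls and the ratio of reads to length were checked on simulated data with known library totals. The recovery of the totals and of single read counts was not checked in this way.

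Annotations came from the study's supplementary tables of contigs, joined by RefSeq identifier. They cover 888 genes, of which 850 have a product name. Members, gene lists and rules were chosen with earlier results of these data known. Named genes were the 12 highest and 12 lowest ratios with a product name and at least 50 RPKM, up to 4 members of each of 46 lists by mean RPKM, genes the study names, the 10 most abundant named genes per age, and members of at least 10 RPKM of 4 lists (ethylene synthesis, ethylene perception, abscission signalling, polygalacturonases). Of 69 names looked up 64 had a transcript in the field tables. A few other list members and the unnamed genes at the extremes were named after their values were seen. Alternatives were pseudocounts of 1 and 0.01, median and TPM scaling, RPKM minimums of 0 and 5, a 4-fold limit, single transcripts, and mRNA only.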

Additional observations from a re-analysis of the deposited data

How the results depend on the processing

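More genes were lower than higher at 120 DAP under every alternative run. At least 4-fold differences were found in 1823 genes higher and 4308 lower, against 4331 and 7651 at 2-fold, and with a minimum of 5 RPKM 4661 genes were lower and 3196 higher. Rescaling by the median ratio moved the counts to 5428 higher and 6794 lower, and TPM to 4195 higher and 8863 lower. No named gene of 188 changed direction in pseudocount, scaling or single-transcript alternatives. TPM took 3 calls away and added 4, a pseudocount of 1 took 2 away, median scaling added 2 and single transcripts took 1 away, all in genes near the 2-fold limit except the beta-galactosidase LOC105040419. Of 84 list counts, 19 moved by over 1.5 times at 4-fold, 5 with single transcripts, 3 with TPM, and 1 each with a pseudocount of 1 and with median scaling. No paired analysis was possible because each age has 1 library. Depth does not limit the counting of abundant genes, but without replicates no spread between palms or bunches is known for any of them.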

Other observations

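Outside the lists, annotated genes with ratios near that of the hemoglobin EgHB1 were a cytochrome P450 (LOC105041286), with 109 RPKM at 120 DAP and 0.453 RPKM at 30 DAP, inositol oxygenase (LOC105048015), with 52.6 RPKM at 120 DAP and 0.345 RPKM at 30 DAP, and a gene similar to the brassinosteroid receptor inhibitor BKI1 (LOC105058257), with 50.7 RPKM at 120 DAP and 0.440 RPKM at 30 DAP. Inositol oxygenase opens a route from inositol to wall precursors. Transporters that the study names went both ways. EgSULTR3;5 (LOC105043754), of the sulfate transporter family, had 43.9 RPKM at 120 DAP and 0.842 RPKM at 30 DAP, and EgLHT1 (LOC105053311), an amino acid carrier, had 107 RPKM at 120 DAP and 4.95 RPKM at 30 DAP. EgNRT1/PTR (LOC105051695), of the nitrate and peptide transporter family, was 3.91-fold lower, with 2.64 RPKM at 120 DAP and 10.3 RPKM at 30 DAP. EgHMG2 (LOC105036971) and EgMIPS2 (LOC105032996) had 10.8 and 5.20 RPKM at 120 DAP, against 12.6 and 7.35 RPKM at 30 DAP, and stood at 174 and 81.8 RPKM at 160 DAP, so that neither was called before shedding.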
